A study of Hippoglossus hippoglossus with 15 samples.

Results

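Complement component 3 (c3, probe HH_Contig1838), complement factor D (cfd, HH_Contig1932) and the C-type lectin CLEC4E (clec4e, HH_Contig1769) of Atlantic halibut were followed on all 15 arrays of the series, as 3 of the 10180 probe names on the array. They were picked by probe name as innate defence transcripts. The gene names come from a table of the study that pairs them with these probes and lists them for hatching from these same arrays, so that a higher level at hatching is not independent evidence. The scanner files hold no gene names, and in the RefSeq gene table of this species 1 of the 3 symbols (cfd) was found, so no probe or genome sequence is shown.

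Complement is a cascade of plasma proteins that marks microbes for uptake and opens their membranes. C3 is its central component, cleaved by every activation route, and is made mainly by the liver. Factor D is the serine protease that cleaves factor B and so forms the C3-cleaving enzyme of the alternative route. CLEC4E, called Mincle in mammals, is a receptor on myeloid cells that binds glycolipids of mycobacteria and fungi and a protein released by dying cells, so that of these proteins it is membrane-bound rather than humoral. Fish embryos develop outside the mother, and maternal supply of complement to the egg is known in several fish species.

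Low quality 8-cell embryos (8CS) gave 3 arrays, and high quality embryos gave 3 arrays each at 8CS (8 hours post fertilisation, hpf), at the germ ring stage (GR, 82 hpf), at the 10-somite stage (10SS, 142 hpf) and at hatching (HT, 340 hpf). Total RNA of whole embryos, from farmed females whose eggs were fertilised in vitro with pooled sperm, was labelled with Cy3 and hybridised in 1 colour. Low quality means low fertilisation and hatching success in the study, which describes another collection site, with antibiotics in the seawater, for the comparison of qualities, whereas the labels give 1 farm. The labels do not tie arrays to females, so that p-values measure the spread between these samples only, and in whole embryos fewer cells of a type and less RNA per cell cannot be told apart.

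The 75th percentile of the processed signal, to which each array was scaled, ranged from 515 at GR to 2976 at HT, and between 70.5% and 91.2% of the probes were well above background. Stage markers moved with the labels. The egg transcripts linker histone h1m and zona pellucida-like lay at -6.29 ± 1.11 and -4.77 ± 0.07 at HT, against 6.55 ± 0.24 and 2.91 ± 0.16 at 8CS (log2 relative to the 75th percentile, SD, n = 3). Hatching enzyme (-4.87 ± 0.14 at HT) was well above background on HT arrays only. The array of 10SS replicate 3 stood apart, with a mean correlation of 0.863 with the other arrays of its own group, against 0.926 and 0.928 for the other 10SS arrays. Its zona pellucida-like level was -0.47, against -3.36 and -2.65 on 10SS replicates 1 and 2, while h1m was at -0.99 on it, against -4.52 and 0.68. It was also the 1 earlier array on the slide that held all 3 HT arrays.

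The probe of c3, the central component, was well above background on no array of either early stage and on every HT array. Its 4 spots gave a processed signal of 2.83, 5.56 and 3.15 on the high quality 8CS arrays. Here and below, the signal of a member on an array is the geometric mean over the spots used. At GR the signal was 5.23, 4.13 and 3.22, and at 10SS it was 8.64, 14.7 and 20.8. On the HT arrays the signal was 261, 347 and 292, so that HT did not overlap with any earlier stage.

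None of the 12 c3 spots at 8CS and none of the 11 used at GR was well above background, a mark that the extraction software sets per spot. The signal needed for it differed between arrays. At 10SS 5 of 12 spots had this mark, 4 of them on replicate 3 and 1 on replicate 2. At HT all 12 had it. The negative control spots give a second yardstick, with a highest signal between 2.45 and 8.02 per array. Of the c3 spots, 4 of 12 at 8CS and 2 of 11 at GR exceeded every negative control of their array, and at 10SS 11 of 12 did. An array was counted as detected where at least 50% of the spots used carried the mark, which gave 0, 0, 1 and 3 arrays for c3 at 8CS, GR, 10SS and HT.

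Relative to the 75th percentile of the array, the log2 level of c3 was -7.98, -7.69 and -8.07 at 8CS, -7.21, -7.70 and -7.32 at GR, -7.97, -7.01 and -6.31 at 10SS, and -3.43, -2.99 and -3.35 at HT. The 10SS arrays reached down to the 8CS levels and up to a level between GR and HT. The limma fit of the 12 high quality arrays put c3 4.66 ± 0.36 higher at HT than at 8CS (log2, SE, 95% interval 3.85 to 5.47, adjusted p = 1.67e-06). The difference from GR was 4.15 ± 0.36 (adjusted p = 1.51e-05) and that from 10SS was 3.84 ± 0.36 (adjusted p = 0.000107). In this fit the stages share 1 estimate of the spread per probe, but 10SS varied more than HT. SDs of c3, cfd and clec4e were 0.84, 0.84 and 0.82 at 10SS, against 0.24, 0.40 and 0.34 at HT. For each of them the p-values against 10SS can therefore be too small and the intervals too narrow. Since c3 was detected on only 1 of the earlier arrays, the folds are bounds. From the group means, the bounds for the c3 signal at HT were 12.9 times that at 8CS, 8.02 times that at GR and 10.7 times that at 10SS. For such bounds an earlier array counts at the lowest level of any detected probe on it, or at its own level where that is higher. The bounds allow for signals below detection and not for the spread between arrays.

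**Figure D1:**
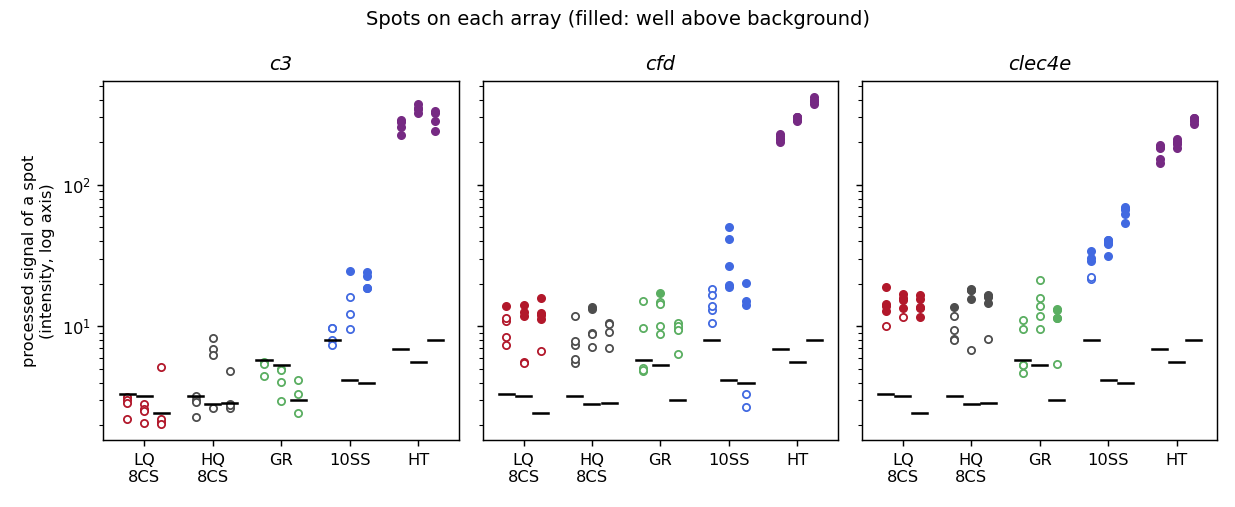
Processed signal of each spot of c3, cfd and clec4e (log axis), with the 3 arrays of a group side by side, low quality 8CS (LQ), high quality 8CS (HQ) and the later stages in order. Filled points carry the well above background mark, outlier spots are left out, and black bars give the highest negative control spot of the array. At HT every spot of each probe lay between 144 and 415, above all earlier spots of the same probe.

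The protease transcript cfd had a low signal from the first stage on, at 7.39, 10.1 and 9.13 on the 8CS arrays and 7.08, 12.7 and 9.08 on the GR arrays. At 10SS the signal was 14.2, 29.1 and 8.30, and at HT it was 214, 294 and 393. Only the HT arrays were separate from the rest, while the 3 earlier stages overlapped.

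Few of the early cfd spots had the mark for well above background, 2 of 14 at 8CS and 1 of 15 at GR. Yet every 8CS spot used, 14 of 14, and 12 of 15 at GR were brighter than all negative controls of their array. The mark was set on 8 of 15 spots at 10SS and on 15 of 15 at HT. On 10SS replicate 3 the 5 spots of cfd ran from 2.71 to 20.4 with an SD of 1.36 on the log2 scale, the widest scatter of any probe and array among the 3 transcripts, so that this array counted as detected while its mean level was the lowest for cfd. The 3 arrays of 10SS thus placed cfd and c3 differently, with c3 highest and cfd lowest on replicate 3.

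The log2 level of cfd was -6.60, -6.84 and -6.53 at 8CS, -6.77, -6.08 and -5.83 at GR, -7.25, -6.03 and -7.64 at 10SS, and -3.71, -3.23 and -2.92 at HT. HT exceeded 8CS by 3.37 ± 0.41 on the log2 scale (SE, adjusted p = 3.33e-05 from limma), GR by 2.94 ± 0.41 (adjusted p = 0.000163) and 10SS by 3.69 ± 0.41 (adjusted p = 0.000251). From the group means, the bounds for the cfd signal at HT were 9.87-fold over 8CS, 5.94-fold over GR and 11.3-fold over 10SS. They are not lower confidence limits. The intervals of the fit reached down to 2.47, 2.03 and 2.78 on the log2 scale. Without single arrays the bounds against 8CS and GR were as low as 8.70 and 5.24. The bound against 10SS ranged from 8.45 to 14.8 when single arrays were left out.

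The lectin receptor transcript clec4e had the highest share of marked spots at the early stages and the smallest of the fitted differences at HT, which were not tested against each other. Its signal was 9.97, 14.5 and 14.0 at 8CS, 6.76, 13.9 and 10.4 at GR, 27.0, 37.8 and 63.8 at 10SS, and 169, 198 and 287 at HT. The brightest 10SS array lay below the dimmest HT array.

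Of the clec4e spots, 9 of 15 at 8CS, 3 of 15 at GR, 13 of 15 at 10SS and 15 of 15 at HT were well above background. By array this gave 2, 1, 3 and 3 detected arrays at the 4 stages. These counts also depend on the array. On GR replicate 2 spots at 16.0 and 21.1 lacked the mark, while a spot at 13.7 on high quality 8CS replicate 1 had it. The fitted difference of GR from 8CS was -0.004 on the log2 scale. All 15 spots at 8CS and 12 of 15 at GR exceeded every negative control of their array.

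The log2 level of clec4e was -6.17, -6.31 and -5.92 at 8CS, -6.84, -5.94 and -5.63 at GR, -6.33, -5.65 and -4.69 at 10SS, and -4.05, -3.80 and -3.37 at HT. HT was 2.39 ± 0.42 higher than 8CS (log2, SE, adjusted p = 0.000487 from limma), 2.39 ± 0.42 higher than GR (adjusted p = 0.000651) and 1.82 ± 0.42 higher than 10SS (adjusted p = 0.0147), where detection on every array of both stages gives a fold of 3.52. Against 8CS and GR the bounds from the group means were 5.24-fold and 4.01-fold, and without single arrays as low as 4.61 and 3.53. The call against 10SS was lost without HT replicate 2 (adjusted p = 0.0505) or HT replicate 3 (adjusted p = 0.0688), although the difference stayed at 1.84 and 1.63.

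**Figure D2:**
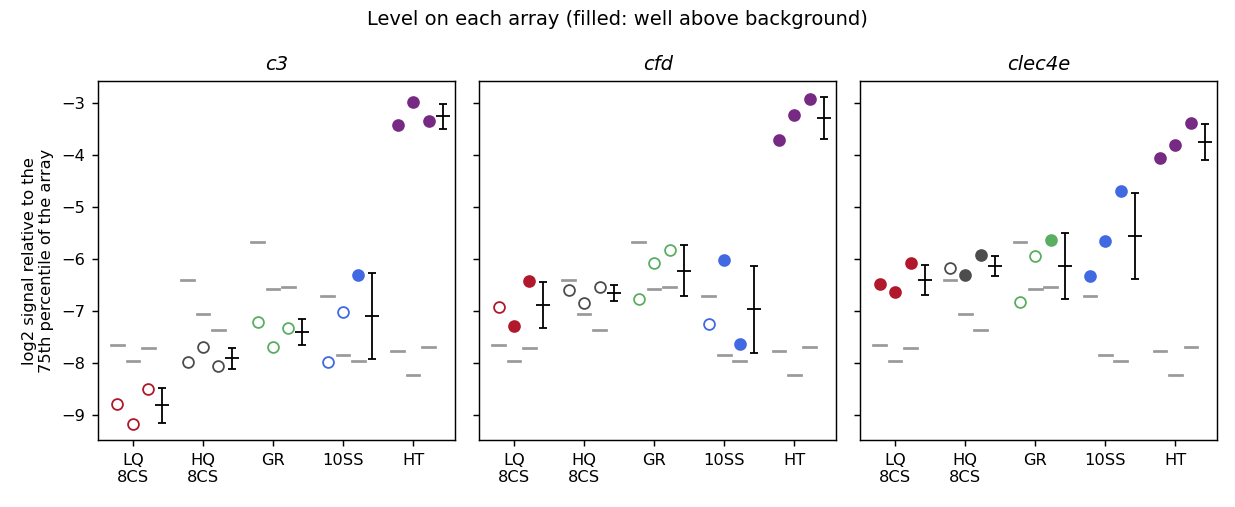
Log2 signal of c3, cfd and clec4e on each array relative to its 75th percentile, with low quality 8CS (LQ), high quality 8CS (HQ), GR, 10SS and HT from left to right. Points are filled where the array counted as detected, grey bars give the lowest level of a detected probe on that array, and black bars give mean ± SD of 3 arrays. HT lay at -3.25 ± 0.24 for c3, -3.29 ± 0.40 for cfd and -3.74 ± 0.34 for clec4e, above every earlier array of the same probe.

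Each of the 3 transcripts was called higher (adjusted p under 0.05 and at least 2-fold) at HT than at every earlier stage. On every earlier array of the fit c3 and cfd lay below the 20th percentile, so both entered the fit through HT alone. Without a filter on dim probes c3 and cfd kept these calls. Of the 9283 probes tested, 31.8% were called higher at HT than at 8CS, 26.6% higher than at GR and 8.93% higher than at 10SS. These shares depend on the scaling. In the main fit 2950, 2472 and 829 probes were called higher and 2977, 2914 and 517 lower at HT than at 8CS, GR and 10SS, whereas spike-in scaling gave 6802, 7404 and 2743 higher and 417, 154 and 86 lower, and normexp as planned 1270, 1041 and 116 higher and 3588, 3132 and 61 lower. With quantile normalization 700 were higher and 972 lower at HT than at 10SS.

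Between the earlier stages none of the 3 transcripts was called in the main fit. With spike-in scaling c3 and clec4e were called higher at 10SS than at GR (2.13 and 2.40), and cfd was called lower with normexp on replaced backgrounds (-1.16). The background of calls for a higher level was 26.0% for 10SS over 8CS, 18.1% for 10SS over GR and 21.6% for GR over 8CS. The largest of these differences was that of c3 between 10SS and 8CS, 0.82 ± 0.36 (95% interval 0.01 to 1.62, adjusted p = 0.0729). Without 10SS replicate 1 it was called, at 1.25 (adjusted p = 0.0044). For cfd the interval of the difference between 10SS and 8CS ran from -1.22 to 0.59, and that between 10SS and GR from -1.65 to 0.16 around -0.75. With the median over spots these differences of cfd were -0.08 and -0.46. Without 10SS replicate 2, the difference between 10SS and GR passed the threshold, at -1.22 (adjusted p = 0.021). For clec4e the difference of 10SS from 8CS was 0.57 (interval -0.36 to 1.51) and that of GR from 8CS was 0.00 (interval -0.94 to 0.93), so that a 2-fold change lay inside the first interval only. With 2 8CS arrays and 1 GR array detected, the second interval bounds a signal near background and not the RNA.

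The order of detection was clec4e before cfd and c3 when marked spots are counted. The steps between neighbours were not tested, since spots of an array are not replicates. Spots above every negative control did not separate clec4e from cfd (15 of 15 and 14 of 14 at high quality 8CS, 12 of 15 each at GR). With every spot required, clec4e too was detected on no high quality 8CS or GR array. Of all probes, 507 (4.98%) were detected on every HT array and on no high quality 8CS or GR array, as were c3 and cfd. In low quality 8CS embryos cfd was detected on 2 of 3 arrays. With the same number of detected 10SS arrays besides, there were 114 probes like c3 and 164 like cfd. A pattern like that of clec4e, with every HT and 10SS array and some but not all arrays of high quality 8CS and of GR, was found for 166 probes (1.63%).

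Ranks within an array do not depend on its scaling. Among all 10180 probes, c3 was at percentile 8.32, 14.0 and 11.1 on the 8CS arrays, 12.3, 8.97 and 10.7 at GR, and 10.0, 11.5 and 17.0 at 10SS. At HT it was at percentile 38.1, 43.3 and 39.9, which is rank 6302, 5773 and 6120 counted from the brightest probe.

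The percentile of cfd lay between 17.8 and 19.4 at 8CS and between 18.6 and 20.0 at GR. At 10SS it was 13.6, 17.7 and 10.4, below all GR arrays, and at HT 35.4, 40.7 and 44.4. For clec4e it lay between 20.8 and 22.9 at 8CS and between 18.1 and 21.4 at GR, was 18.2, 20.5 and 29.6 at 10SS, and reached 31.8, 34.4 and 39.5 at HT. By rank, then, only replicate 3 placed clec4e higher at 10SS than on the 8CS and GR arrays, and HT stood above all earlier arrays for each of the 3 transcripts. Brightness of different probes is not a measure of their RNA amounts.

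**Figure D3:**
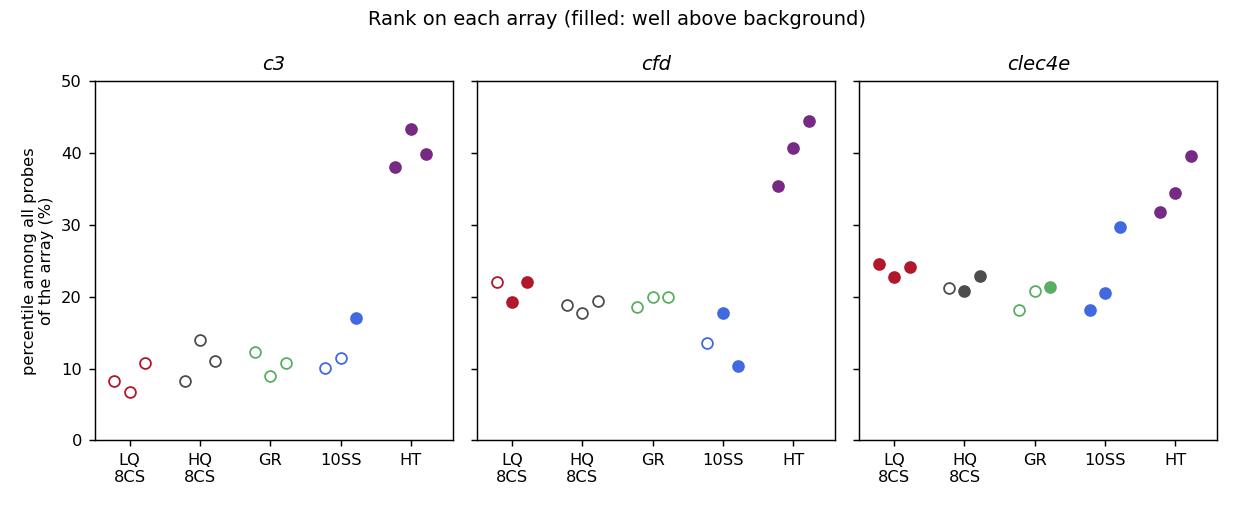
Percentile of c3, cfd and clec4e among all probes of the same array (0 is the dimmest), with groups in the order low quality 8CS (LQ), high quality 8CS (HQ), GR, 10SS and HT. Filled points are detected arrays. Each transcript stayed below percentile 30 on every array before HT and lay between percentile 31.8 and 44.4 at HT.

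The 3 HT arrays shared their slide with 10SS replicate 3 and with no other array. Within this slide, c3 on the HT arrays was 2.88, 3.32 and 2.96 above the 10SS array on the log2 scale, a mean of 3.05 or 8.30-fold. For cfd the differences were 3.92, 4.41 and 4.71, a mean of 20.4-fold over the array with the scattered spots. For clec4e they were 0.64, 0.89 and 1.32, a mean of 1.93-fold, so that the 2-fold limit was not reached within the slide. With slide as a fixed block, c3 and cfd kept their calls of HT over each earlier stage (c3 at 3.75, 3.01 and 3.05 over 8CS, GR and 10SS), and clec4e kept those over 8CS and GR (1.64 and 1.35) but not over 10SS (0.95, adjusted p = 0.0137). The comparisons with 8CS and GR then run through 10SS replicate 3, since neither stage shares a slide with HT. With slide as a random block, the estimated correlation between arrays of a slide was 0.84 in the stage fit. The main fit takes all arrays as independent, including the HT arrays that share a slide.

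Only the 2 normexp runs, which also start from median spot signals, ended calls of HT over an earlier stage for c3 and cfd. With an offset of 50, normexp took the differences of HT from 8CS to -0.31 for c3, -0.30 for cfd and -0.76 for clec4e, with the median of all probes at -0.98. With the median of the array in place of local backgrounds marked as outliers they were 0.81, 0.77 and 0.28, and no longer called. The processed signals of the 3 probes on the 8CS arrays, 2.83 to 14.5, lie below the offset, whose part in this was not tested. Spike-in scaling instead gave 7.03, 5.74 and 4.76, while the median of all probes moved to 2.26.

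**Figure D4:**
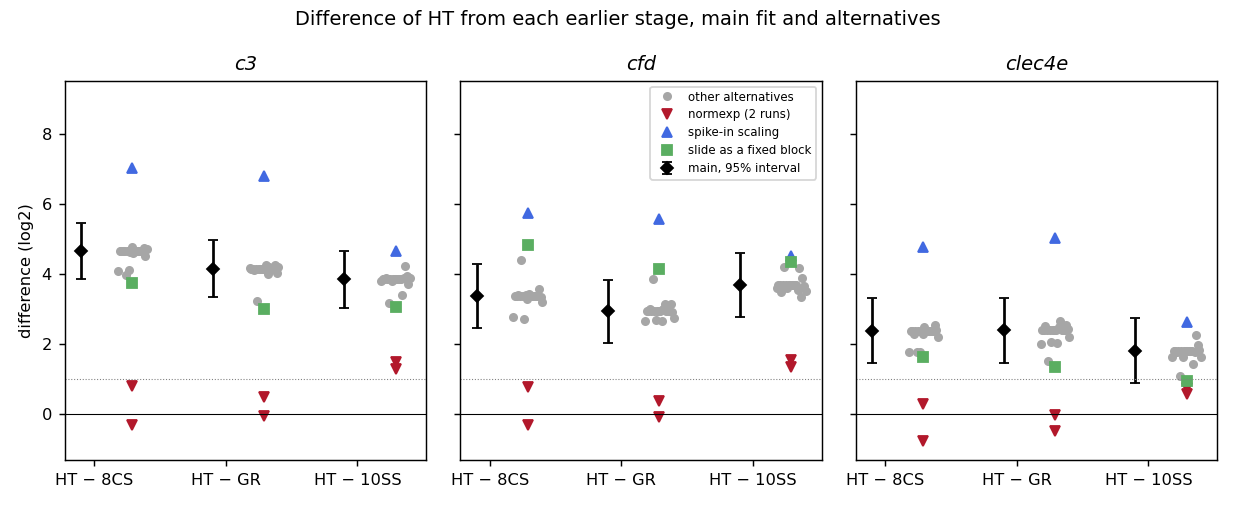
Difference of HT from each earlier stage for c3, cfd and clec4e on the log2 scale, with the main estimate and its 95% interval (black diamond) left of the values under the alternatives. The dotted line marks 2-fold. The normexp runs fall between -0.76 and 1.54, spike-in scaling lies highest at HT over 8CS and GR, and all alternatives other than normexp lie between 0.95 and 7.03.

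Low and high quality 8CS embryos were compared on 6 arrays, where 1.17% of 8737 probes were called different and none of the 3 transcripts was. That count, 102, ran from 11 without low quality replicate 1 to 708 without high quality replicate 3, and was 2375 with spike-in scaling (2166 higher and 209 lower, against 14 and 88 in the main fit) and 39 higher and 49 lower with quantile normalization. The c3 probe gave a signal of 2.79, 2.49 and 2.65 on the low quality arrays, against 2.83, 5.56 and 3.15 on the high quality arrays, and no spot of either group was well above background. Relative to the 75th percentile its level was -8.79, -9.18 and -8.50 in low quality and -7.98, -7.69 and -8.07 in high quality embryos, which do not overlap. No array of either group was well above background and c3 did not reach the filter on dim probes, so no fold is given and the main fit holds no adjusted p. The difference of the means, -0.91, shrank to -0.38 with quantile normalization and to -0.15 with spike-in scaling. The 75th percentile itself lay at 1233, 1445 and 956 on the low quality arrays, against 716, 1151 and 845 on the high quality arrays, and its part in the difference was not tested.

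For cfd the signal was 10.1, 9.19 and 11.2 in low quality embryos, against 7.39, 10.1 and 9.13 in high quality embryos. More of its spots were well above background in low quality (8 of 15, 2 of 3 arrays detected) than in high quality embryos (2 of 14, no array detected). The signal needed for the mark differed between arrays, so these counts do not show more cfd signal. A spot at 11.3 on low quality replicate 3 had the mark, while a spot at 11.8 on high quality replicate 1 lacked it. The levels were -6.93, -7.30 and -6.42 in low quality and -6.60, -6.84 and -6.53 in high quality embryos, and the groups overlapped. The difference was -0.22 ± 0.26 (SE, 95% interval -0.84 to 0.40, adjusted p = 0.572 from limma). It turned positive with quantile normalization (0.38), spike-in scaling (0.53) and the deposited log2 table (0.29). The deposited table is not a separate check here, since its differences follow those of quantile normalization.

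For clec4e the signal was 13.7, 14.6 and 14.1 in low quality embryos, against 9.97, 14.5 and 14.0 in high quality embryos. Spots well above background numbered 13 of 15 in low quality and 9 of 15 in high quality embryos, counts that again depend on the array. The levels were -6.49, -6.63 and -6.08 in low quality and -6.17, -6.31 and -5.92 in high quality embryos, with overlap, and the difference was -0.27 ± 0.21 (interval -0.78 to 0.24, adjusted p = 0.410 from limma). This sign too was turned, to 0.32 with quantile normalization and with the deposited table and to 0.49 with spike-in scaling. Differences of more than 2-fold lie outside both intervals in these units and under the main scaling. Both probes lay near background at 8CS, cfd with no high quality array detected, so the intervals bound the measured signal and not the RNA.

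Other defence transcripts with a named probe were set beside the 3. The first list holds 7 transcripts of innate and plasma defence that the study had listed for HT from these same arrays, so that their direction is not independent evidence. All 7 were called higher at HT than at each earlier stage, with a median of 4.19 over 8CS, against -0.11 for all probes tested. Of all probes tested, 31.8%, 26.6% and 8.93% were called higher at HT than at 8CS, GR and 10SS. Hepcidin-like precursor, apolipoprotein h, GTPase IMAP family member 7, pycard and tissue factor 2 had no detected array before HT. Their differences, and with them the median, start from signals near background and are not measured folds. Hepcidin-like precursor, related to a peptide hormone of iron balance that also acts on microbes, was at 0.77, -0.34 and -1.64 on the HT arrays and averaged -7.62 ± 0.45 at 10SS, where no array was detected. Apolipoprotein h, a lipid-binding plasma protein made by the liver, was at -1.71 ± 0.07 at HT and -8.87 ± 0.47 at 10SS, also with no 10SS array detected. Like c3 and cfd, it was detected on no high quality 8CS or GR array. C-type lysozyme, which cleaves bacterial cell walls, and microfibrillar-associated protein 4 were detected on all high quality arrays of every stage, and lay at -1.64 ± 0.44 and -1.84 ± 0.10 at HT, against -5.65 ± 0.14 and -5.76 ± 0.34 at 8CS. The inflammasome adaptor pycard (-4.32 ± 0.59 at HT), GTPase IMAP family member 7 (-3.86 ± 0.61) and tissue factor 2 (-5.21 ± 0.32), named for a starter of coagulation, were detected at HT alone.

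The second list, 7 transcripts mostly of interferon and cytokine signalling, had none called higher at HT. This list too was drawn from tables of the study made on these same arrays. The study had reported some of its members as expressed only at stages before hatching. The direction of this list at HT is therefore not independent evidence either. The list also holds tissue factor pathway inhibitor 2, an inhibitor of coagulation proteases, which had its largest difference of HT from GR (-6.59). All 7 passed the test as lower at HT than at GR, where 31.4% of all probes tested were called lower, with a median of -3.51 (all probes -0.22). For 1 of them, tank-binding kinase 1, neither stage had a detected array, and the other 6 had a median of -4.09. Against 8CS 3 were called lower at HT, beside 32.1% of all probes. Against 10SS none was called, with a median of -0.14. Of these, irf7, a transcription factor of the interferon response, lay at -4.30 ± 0.07 at HT, against -1.26 ± 0.64 at 8CS. Tank-binding kinase 1, which acts upstream of it, was detected on no array from GR on, and lay at -9.06 ± 0.24 at HT against -2.93 ± 0.51 at 8CS. Probes for mannose binding lectin and for complement factors B, C5, H and I were not paired with a name in the tables used and are not analysed here.

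**Figure D5:**
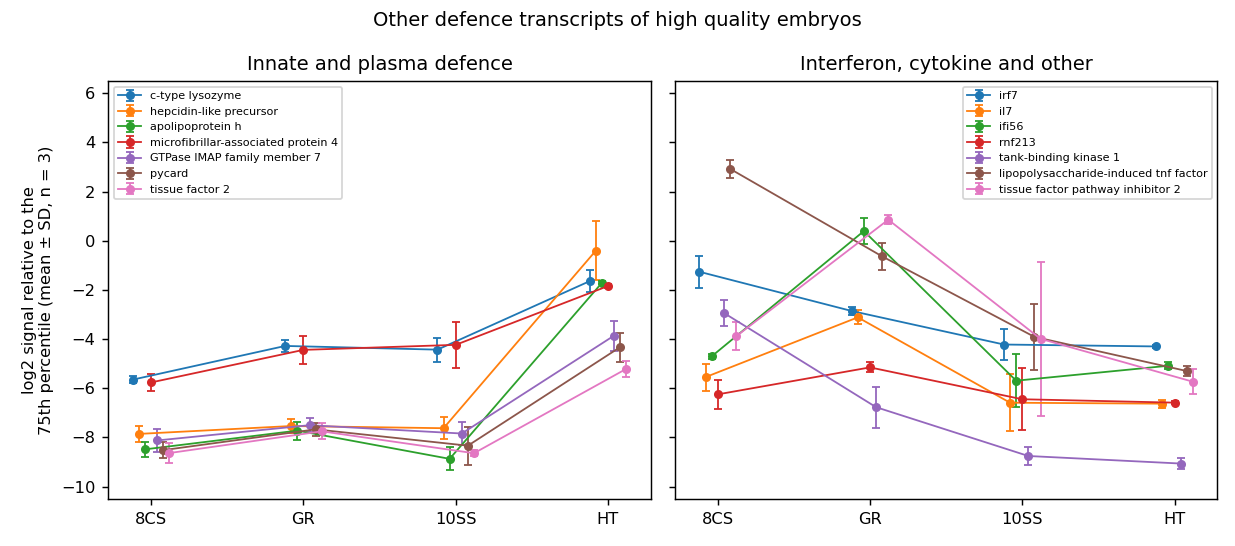
Mean log2 level ± SD of 3 arrays per stage for 7 transcripts of innate and plasma defence (left) and 7 mostly of interferon and cytokine signalling (right) in high quality embryos. On the left every transcript is highest at HT, where means run from -5.21 to -0.40. On the right no transcript is highest at HT. Both lists come from tables of the study made on these same arrays, so that their directions are not independent evidence.

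Over the 15 arrays the level of c3 correlated with that of clec4e at 0.933 and with that of cfd at 0.892, and cfd and clec4e correlated at 0.844 (Pearson, n = 15, a description, since the arrays fall into stage groups and HT lies far from the rest). Among 9282 other probes, c3 was the 7th most alike to clec4e, and the ranks of the other pairings lay between 59 and 195. The probes most alike to c3 were HH_Contig216 (0.984), HH_90601609 (0.981) and HH_Contig671 (0.975), which like c3 were detected on every HT array. They were detected on 2, 1 and 2 10SS arrays, against 1 for c3, and HH_Contig671 was also detected on 1 high quality 8CS array. The probes most alike to cfd were HH_Contig2006 and HH_Contig678 (0.958 each) and HH_90602712 (0.955), with 1, 0 and 0 10SS arrays detected. Those most alike to clec4e were HH_166851254 (0.964), HH_90607472 (0.947), listed as membrane-spanning 4-domains subfamily A member 4A, and HH_90607436 (0.939), each detected at all 4 stages on at least 1 array. By Spearman's rho, 0, 0 and 1 of these 3 probes were again among the top 3 for c3, cfd and clec4e.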

How the data were processed

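The authors deposited Agilent Feature Extraction output for each of 15 arrays, with the processed signal of every spot as a background-subtracted intensity. They also deposited a table of log2 values (9017 probes) centred per probe, for which the paper gives a 75th quantile normalization. Its differences lay near those of quantile normalization (c3 at HT over 8CS 4.12 and 4.08) and not those of the main fit (4.66). The deposited table is therefore not a separate check. The file headers name version 10.7.1.1, the submitters' processing notes 7.2. Here log2 of the processed signal was taken relative to the 75th percentile of the array, control and outlier spots were left out, and the mean was taken over the 4 or 5 spots of each member (and likewise for other probes). A probe entered a comparison if it reached the 20th percentile of any of its arrays. Differences were tested with limma 3.58.1 (R 4.3.3), with Benjamini-Hochberg adjustment over all kept probes, and calls needed adjusted p under 0.05 and a 2-fold difference. The stage fit held 12 high quality arrays and the quality fit 6 8CS arrays. With 3 arrays per group, their number limits the precision. The fit was tested on simulated data with 200 changed probes. The members and lists were chosen with earlier results of these data known. Named are the members, the 3 probes most alike to each, 2 lists of defence transcripts and 4 stage checks. A search for further complement or lectin probes by description found no such column. Alternatives were 2 normexp runs (offset 50, on median spot signals), quantile and spike-in scaling, other filters, the median over spots, all 15 arrays in 1 fit, slide or replicate blocks, the deposited table and leaving out each array.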

Additional observations from a re-analysis of the deposited data

How the results depend on the processing

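Outside normexp, 195 of 198 differences of HT from an earlier stage under the alternatives kept their call, all above 0. The 3 that lost their call were those of clec4e from 10SS, with slide as a fixed block (0.95) and without HT replicate 2 or 3 (range over all arrays left out 1.43 to 2.25). Under normexp 16 of 18 lost the call. As planned it gave for c3 -0.31 over 8CS, -0.035 over GR and 1.29 over 10SS, for cfd -0.30, -0.088 and 1.34, and for clec4e -0.76, -0.49 and 0.58. With outlier backgrounds replaced it gave for c3 0.81 and 0.51 over 8CS and GR, for cfd 0.77 and 0.38, and for clec4e 0.28, -0.018 and, over 10SS, 0.75. The cause was not tested, and no smaller offset was run.

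The difference of cfd between 10SS and 8CS was called positive with spike-in scaling (1.23), against -0.32 in the main setting, and those of c3 (2.36) and clec4e (2.12) were called as well, with the median of all probes at 1.50. Against GR, 10SS was called higher with spike-in scaling for c3 (2.13) and clec4e (2.40), and lower for cfd with normexp on replaced backgrounds (-1.16). For c3 the difference of low from high quality 8CS, -0.91, moved to -0.45 with normexp on replaced backgrounds, -0.38 with quantile normalization, -0.15 with spike-in scaling and -0.38 in the deposited table. Without any filter on dim probes its adjusted p was 0.0912.

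Counts of called probes, both directions together, moved by over 1.5 times in some settings. For HT against 10SS (1346) they were 177 with normexp, 2829 with spike-in scaling, 4476 and 4103 with slide as a fixed and a random block, and 769 to 1763 with 1 array left out. For 10SS against GR (3917) they were 1729 with normexp and 6289 with spike-in scaling, and for GR against 8CS (3922) 1677 with normexp. For low against high quality (102) they were 0 with normexp (311 at an unadjusted p under 0.05), 2375 with spike-in scaling, 173 with the filter on probes well above background, 340 with 15 arrays in 1 fit, 23 with slide as a fixed block, and 11 to 708 with 1 array left out. Same-numbered arrays correlated between -0.22 and 0.57 in their deviations at the 4 stages and between -0.11 and 0.01 between the qualities. Differently numbered arrays were not compared in this way, so these values cannot decide whether the numbers pair the arrays. The replicate block took the count for quality to 17 and that for HT against 10SS to 1381, and changed no call of the 3 transcripts (clec4e over 10SS adjusted p = 0.00439). Over the 15 arrays, requiring every spot of an array for detection took the detected arrays of cfd to 4 and those of clec4e to 6. For clec4e no high quality 8CS or GR array was left, against 2 and 1 before. Low quality 8CS went from 3 to 1 for it and 10SS from 3 to 2. For cfd 10SS went from 2 to 1, and no low quality 8CS array was left, against 2.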
